A study of Homo sapiens with 6 samples.

Results

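Long intergenic noncoding RNAs carrying a LINC symbol and present in the heavy polysome fractions of OSRC-2 cells are described here. OSRC-2 (also written OS-RC-2) is a clear cell renal cell carcinoma (ccRCC) line that lacks a working VHL protein. The cells were treated for 72 h with 2 µM PT2399, a small molecule that blocks the transcription factor HIF2, or with vehicle, and RNA was purified from all sucrose gradient fractions heavier than the monosome peak. Each group had 3 libraries from separate biological replicates of the same line. The deposited table holds 30345 rows, of which 518 carry a symbol made of LINC and a number. The 130 described here (25.1% of the 518) were selected on their mean over all 6 libraries, which had to reach 30 normalized counts. That mean chose the rows, so their abundance is given as a description only. A normalized count is a read count divided by a factor for the depth of its library.

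A LINC symbol is given to a gene that lies apart from protein-coding genes and makes a long transcript with no recognized protein. Some such transcripts stay in the nucleus, others reach the cytoplasm, and some bind ribosomes or turn out to encode a small protein. HIF2, made of a subunit encoded by EPAS1 and its partner ARNT, accumulates in cells without VHL and switches genes on through a short DNA element whose core is ACGTG or GCGTG. RNA in a heavy gradient fraction travels with several ribosomes or with another large complex, and the fraction alone does not tell these apart.

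The values are those of the authors' DESeq2 comparison of PT2399 over vehicle, and values of single libraries were not used here. Each row had a mean over the 6 libraries, a log2 fold change and the standard error (SE) of that change. From the mean and the fold change, a level in each group was derived, which is an estimate with no spread of its own. A row counted as called where its adjusted p did not exceed 0.05 in the authors' two-sided Wald test with Benjamini-Hochberg adjustment over all tested rows, and the adjusted p-values below are those of the authors' deposited table. No RNA from unfractionated cells was part of the table, so a lower level in polysomes and a lower level in the whole cell cannot be told apart.

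Markers of renal carcinoma were present at uneven levels. PAX8, the renal lineage factor, had a mean of 17470 normalized counts, whereas PTPRC and LYZ of leukocytes had 1.85 and 2.67 and PECAM1 of endothelium had 13.2. CA9 and NDUFA4L2, markers of ccRCC, had 258 and 101. Of the fibroblast markers COL1A1 had 209, in the range of those 2, while COL3A1, DCN and PDGFRB had 0.929, 1.48 and 19.5. EPAS1 and the HIF targets NDRG1, VEGFA and EGLN3 were lower with PT2399, at -2.19, -2.36, -1.47 and -2.02 on the log2 scale. CA9 was lower too, at -1.265 (SE 0.17), while NDUFA4L2 was not called (-0.03, SE 0.26, adjusted p = 0.964). Relative depth, as size factors recovered from 1307 genes with a lone read, ran from 0.782 to 1.10 in the PT2399 libraries and from 0.900 to 1.19 in the vehicle libraries.

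Most of the LINC rows were not called, and those that were moved in both directions. Of 130 rows, all tested, 22 were called, 10 higher and 12 lower with PT2399, while 108 were not. The called share was 16.9% (95% Wilson interval 11.4% to 24.3%, counting error only). Among all 15634 tested rows, 23.0% were called, 11.3% higher and 11.7% lower, and among the 14142 tested rows that also had a mean of at least 30 the share was 25.1%. When a change of at least 2-fold was required as well, 8 LINC rows passed (6.15%), 2 higher and 6 lower, against 2.05% of all tested rows and 1.92% of those with a mean of at least 30. The 2 higher rows, LINC01164 and LINC00519, had estimated vehicle levels under 30 normalized counts and reached the selection limit through their PT2399 level. These 2-fold shares were not matched for abundance or tested against each other. The median mean was 125.8 normalized counts for the LINC rows and 1051 for all tested rows with a mean of at least 30. The median log2 fold change was -0.03 over the LINC rows and 0.00 over all tested rows, and the median absolute value was 0.21 against 0.16. The LINC rows had a wider error, with a median SE of 0.24 against 0.11.

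**Figure D1:**
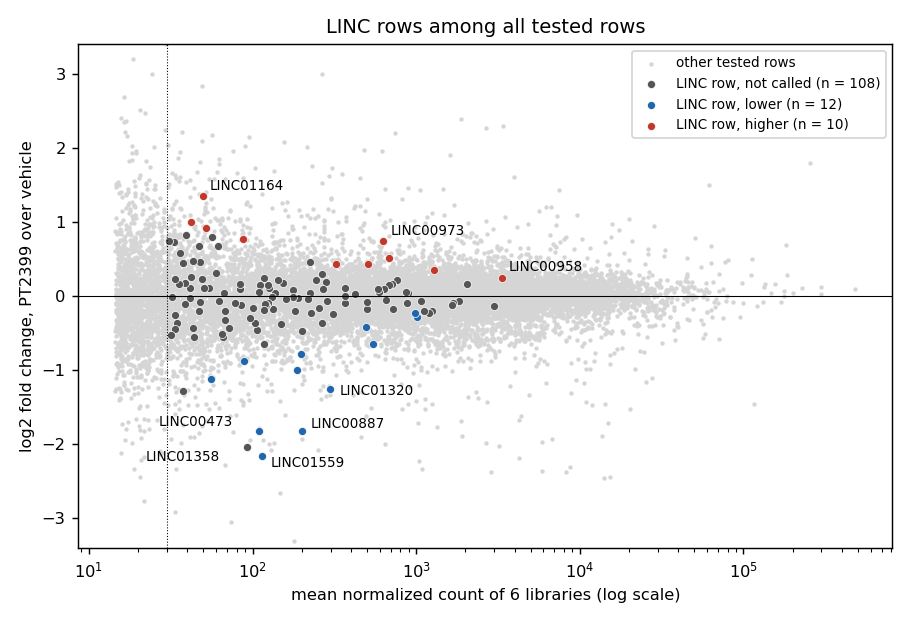
Log2 fold change of PT2399 over vehicle (vertical axis) against the mean normalized count of 6 libraries (horizontal axis, log scale) for all tested rows in grey and the 130 LINC rows in colour, with the selection limit of 30 as a dotted line. The 12 lower LINC rows reach -2.16, the 10 higher ones reach 1.36, and 10 grey points lie beyond the vertical range.

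Read by abundance, the called share of the LINC rows lay above that of all tested rows in some ranges and below it in others. From 30 to 100 normalized counts, 6 of 50 were called (12%, 4 higher and 2 lower), against 8.01% of all tested rows in that range. From 100 to 300, 6 of 43 were called, all lower (13.95%, against 14.7%). From 300 to 1000 the called share was 28.0% of 25 against 20.3%, and at 1000 or more it was 25.0% of 12 against 34.4%. Over these ranges the median SE of the LINC rows fell from 0.38 through 0.22 and 0.12 to 0.08. These shares are counts beside the background and were not tested against it.

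Promoter windows are printed for LINC00887 and LINC00473, which have the smallest adjusted p among the lower rows whose window was used, and for LINC00973 and LINC01411, which have the smallest among the higher rows. They show the presence or absence of the motif that HIF2 binds. Windows of LINC01559, LINC01320 and LINC00880 were not used here, and the window of LINC01024 held no copy of the motif. Each window is RefSeq GRCh38.p14 sequence on the strand of the gene, from 250 bases before to 50 after the annotated start. Capitals mark ACGTG or GCGTG on either strand, and in the LINC00473 window, which holds neither, they mark TGACG on either strand, the core of the cAMP response element bound by CREB. TGACG was chosen after its letters were seen in that window. LINC00973 has 4 annotated starts in that table, and the window of the first one is printed. The windows are chr3:194312755-194313054 (minus strand) for LINC00887, chr6:165987990-165988289 (minus strand) for LINC00473, chr3:98914316-98914615 (plus strand) for LINC00973 and chr5:174336104-174336403 (plus strand) for LINC01411.
LINC00887: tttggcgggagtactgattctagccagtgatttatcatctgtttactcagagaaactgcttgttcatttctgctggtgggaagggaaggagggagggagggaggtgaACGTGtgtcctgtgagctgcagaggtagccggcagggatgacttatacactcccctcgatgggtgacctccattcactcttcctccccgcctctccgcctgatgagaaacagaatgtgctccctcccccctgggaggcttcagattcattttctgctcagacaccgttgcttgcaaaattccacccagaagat
LINC00473: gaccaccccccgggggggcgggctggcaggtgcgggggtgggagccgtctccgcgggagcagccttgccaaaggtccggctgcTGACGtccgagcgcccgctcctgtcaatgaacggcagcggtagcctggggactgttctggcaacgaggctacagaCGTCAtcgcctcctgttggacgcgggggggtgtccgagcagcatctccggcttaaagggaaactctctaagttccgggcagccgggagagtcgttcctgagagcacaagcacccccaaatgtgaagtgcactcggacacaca
LINC00973: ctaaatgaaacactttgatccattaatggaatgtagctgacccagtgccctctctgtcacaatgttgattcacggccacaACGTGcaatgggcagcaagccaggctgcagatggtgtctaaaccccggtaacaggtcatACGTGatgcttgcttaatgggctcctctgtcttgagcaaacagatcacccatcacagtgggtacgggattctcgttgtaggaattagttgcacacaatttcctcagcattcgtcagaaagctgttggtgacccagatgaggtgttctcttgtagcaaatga
LINC01411: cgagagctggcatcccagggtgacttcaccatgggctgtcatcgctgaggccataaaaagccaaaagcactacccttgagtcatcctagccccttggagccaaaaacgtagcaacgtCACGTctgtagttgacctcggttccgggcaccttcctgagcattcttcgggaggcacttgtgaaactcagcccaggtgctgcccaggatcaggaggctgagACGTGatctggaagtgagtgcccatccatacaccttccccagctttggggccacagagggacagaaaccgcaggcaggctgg

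The window of LINC00887 held 1 copy of the HIF core, starting 143 bases before the start. LINC00973 and LINC01411, which were higher with PT2399, held 2 copies each, at 170 and 111 bases and at 133 and 32 bases before the start, while the windows of the other 3 starts of LINC00973 held none. Over all 35116 RefSeq promoter windows, 48.4% held ACGTG or GCGTG on either strand, and of the 119 windows found for 102 of the LINC rows, 53 did (44.5%). By call, 4 of 7 windows of lower rows, 2 of 12 of higher rows and 47 of 100 of uncalled rows held it. These windows came from 7, 8 and 87 genes in that order, and windows of 1 gene are not separate units. LINC00973 alone gave 4 of the 12 windows of higher rows, 3 of them without the motif. LINC00511 and LINC01116, both lower, held 3 copies each, and LINC01515, also lower, held 1. TGACG stood in 24.6% of all windows and in 26.9% of those of the LINC rows. By call, it was in 1 of 7 windows of lower rows, that of LINC00473, in 5 of 12 of higher rows and in 26 of 100 of uncalled rows. Among the 5 are 2 overlapping windows of LINC00888 that hold the same copy, so it was counted 2 times. The printed windows of LINC00973 and LINC01411 hold 1 copy each, which the capitals there do not mark. A match is a stretch of letters and not a measured binding site.

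LINC00887, a noncoding transcript from chromosome 3 between 194301199 and 194312804 (GRCh38, minus strand), had the smallest adjusted p of the 130. Its estimated level was 313 normalized counts with vehicle and 88.3 with PT2399. The log2 fold change was -1.83 (SE 0.20, adjusted p = 1.3e-18), so that 28.2% of the vehicle level was left (95% interval 21.6% to 36.9%). No other RefSeq gene overlaps it.

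LINC01559, from chromosome 12 between 13370671 and 13376745, had the largest fall among the called rows. It went from an estimated 187 normalized counts to 41.8, a log2 fold change of -2.16 (SE 0.28, adjusted p = 1.1e-12), or 22.4% of vehicle (15.2% to 32.9%). Its span touches no other annotated gene.

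LINC00473, known as a transcript induced by cAMP through CREB, fell to a similar degree. The estimated level was 171 normalized counts with vehicle and 48.5 with PT2399, with a log2 fold change of -1.82 (SE 0.26, adjusted p = 2.8e-11) and 28.3% of vehicle left (20% to 40%). Its gene on chromosome 6 (165924048 to 165988039, minus strand) overlaps the span of PDE10A, which encodes a phosphodiesterase that degrades cyclic nucleotides. PDE10A itself was at 5905 normalized counts with a log2 fold change of -0.11 (SE 0.06, adjusted p = 0.209) and was not called. The libraries were made with a stranded kit, but whether the counting used the strand was not stated. Strand could separate the genes only if they lay on opposite strands, which was not examined here. It is unknown whether reads of one were counted for the other.

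LINC01320, from chromosome 2 between 34677557 and 34722563, went from an estimated 422 to 176 normalized counts. Its log2 fold change was -1.26 (SE 0.15, adjusted p = 8.8e-15), or 41.8% of vehicle (33.9% to 51.5%). LINC00880, from chromosome 3 between 157081667 and 157123002, went from 248 to 124 (log2 fold change -1.0, SE 0.19, adjusted p = 1.3e-06). Also past 2-fold was LINC01024, now named MALINC1 for an RNA associated with mitosis, at 75.9 and 35.0 normalized counts (-1.12, SE 0.40, adjusted p = 0.0254). The MALINC1 interval reached from 26.9% to 79.2% of vehicle, much wider than that of LINC01320. The spans of LINC01320 and LINC00880 each overlapped 2 other RefSeq genes, none of them coding. The span of LINC01024 overlapped 1, the coding gene LOC124900193.

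The other 6 lower rows changed less. LINC01515 on chromosome 10 went from 665 to 426 normalized counts (log2 fold change -0.64, SE 0.13, adjusted p = 7.2e-06). LINC00342 on chromosome 2 went from 252 to 146 (-0.78, SE 0.19, adjusted p = 4.0e-04), and LINC01572 on chromosome 16 from 115 to 62.5 (-0.87, SE 0.28). LINC01057 had -0.42 (SE 0.14). It is listed now as SLC44A3-AS1, a name for an RNA antisense to SLC44A3. Its strand was not used here, and its span does not overlap that of SLC44A3. LINC00511 and LINC01116, both studied in tumours, were abundant and changed little, with 82.5% and 85.0% of vehicle left (log2 fold changes -0.28 and -0.23, SE 0.09 for each). The median log2 fold change of the 12 lower rows was -0.94.

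The 6 higher rows with more than 300 normalized counts rose by at most 0.75 on the log2 scale. LINC00973, from chromosome 3 between 98914566 and 98998841, had the smallest adjusted p among them. Its estimated level rose from 469 to 788 normalized counts, a log2 fold change of 0.75 (SE 0.14, adjusted p = 6.9e-07), or 168% of vehicle (140% to 202%). LINC01411 on chromosome 5 (174336354 to 174527139) rose from 560 to 796 (0.51, SE 0.10, adjusted p = 1.7e-05).

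Among the other higher rows, LINC00958 on chromosome 11 was the most abundant LINC row of all, at a mean of 3336 normalized counts. It rose from an estimated 3061 to 3611 (log2 fold change 0.24, SE 0.06, adjusted p = 0.00180), or 118% of vehicle, with the smallest SE of the called rows. LINC00888 was at 135% of vehicle (0.43, SE 0.12). It is now named SNHG33, a host gene of small nucleolar RNAs, which are spliced out of its introns. LINC00839 was likewise at 135% (0.44, SE 0.15).

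A set of 4 higher rows with under 100 normalized counts had larger fold changes and wide intervals. LINC01164 went from 27.9 to 71.3 normalized counts (log2 fold change 1.36, SE 0.38, adjusted p = 0.00239), which is 256% of vehicle with an interval of 154% to 426%. LINC00519 went from 28.0 to 56.0 (1.00, SE 0.38, adjusted p = 0.0415), LINC01119 from 35.9 to 67.6 (0.91, SE 0.35, adjusted p = 0.0449) and LINC01094 from 64.7 to 110 (0.77, SE 0.26, adjusted p = 0.0187). The calls of LINC00519 and LINC01119 were lost, at adjusted p = 0.0796 and 0.0862, when the adjustment ran over every row with a p-value, as was that of LINC01116 at 0.0606. The median log2 fold change of the 10 higher rows was 0.63.

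**Figure D2:**
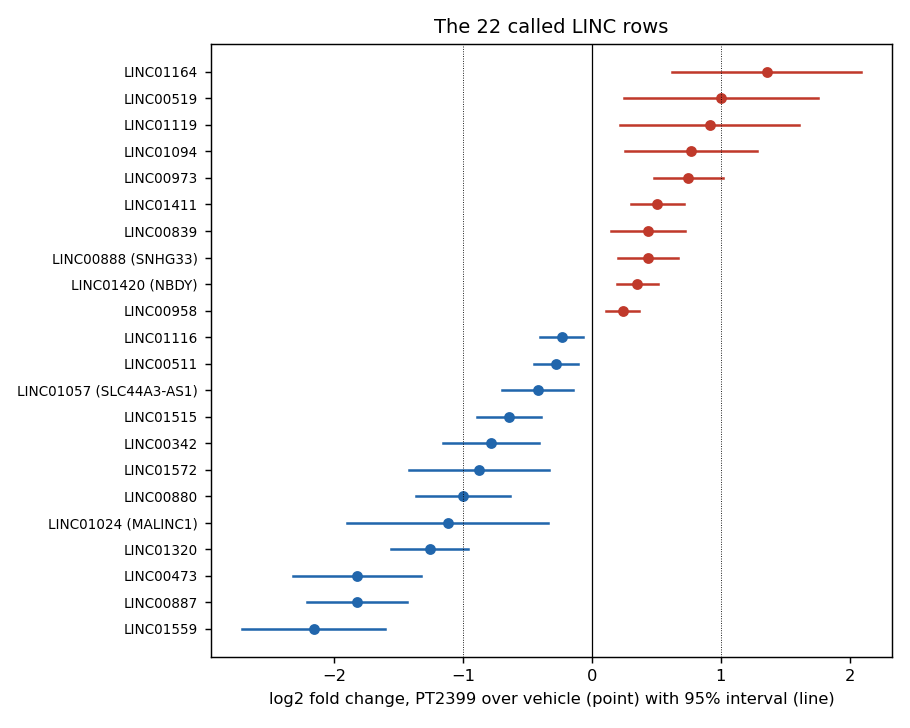
Log2 fold change of PT2399 over vehicle (points) with its 95% interval (lines, 1.96 SE on each side) for the 22 called LINC rows, lower in blue and higher in red, with dotted lines at -1 and 1. The intervals of LINC01559, LINC00887 and LINC00473 lie wholly below -1, and no interval of a higher row lies wholly above 1.

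**Figure D3:**
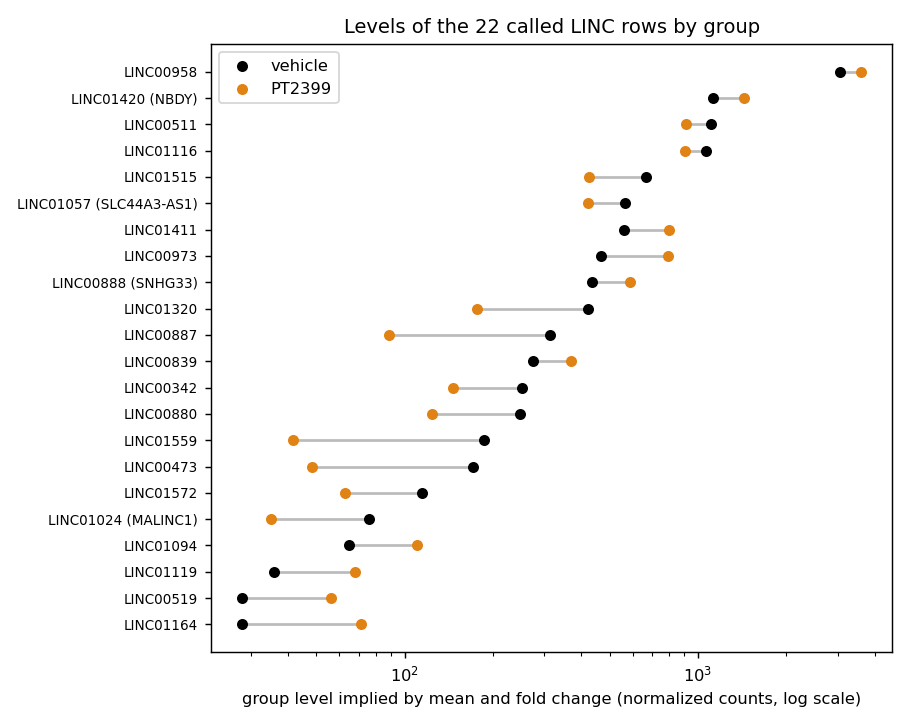
Estimated level of each of the 22 called LINC rows with vehicle (black) and with PT2399 (orange), in normalized counts on a log axis, ordered by the vehicle level. LINC00958 stands highest at 3061 and 3611, LINC01164 lowest with vehicle at 27.9, and the longest line is that of LINC01559, from 187 to 41.8.

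Several LINC symbols now belong to genes with a known small protein. All 130 rows matched a RefSeq gene, 99 by present symbol and 31 by an older one, and RefSeq lists 120 as noncoding RNA, 8 as protein-coding genes and 2 as transcribed pseudogenes. The 3 most abundant of the 8 are LINC01420 (NBDY), whose microprotein binds the mRNA decapping complex of P-bodies, LINC00998 (SMIM30), a small membrane protein, and LINC00493 (SMIM26), a small protein of mitochondria. Their coding sequences, from the canonical GENCODE transcripts, are printed because they show how short a reading frame such an RNA carries. Capitals mark the start and the stop codon.
NBDY: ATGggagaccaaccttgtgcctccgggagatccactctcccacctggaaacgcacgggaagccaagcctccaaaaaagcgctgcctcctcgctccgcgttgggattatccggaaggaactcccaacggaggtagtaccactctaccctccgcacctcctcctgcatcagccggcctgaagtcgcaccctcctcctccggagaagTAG
SMIM30: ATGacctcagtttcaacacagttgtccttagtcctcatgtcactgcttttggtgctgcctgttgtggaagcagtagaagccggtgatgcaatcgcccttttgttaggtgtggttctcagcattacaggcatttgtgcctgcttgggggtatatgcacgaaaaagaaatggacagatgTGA
SMIM26: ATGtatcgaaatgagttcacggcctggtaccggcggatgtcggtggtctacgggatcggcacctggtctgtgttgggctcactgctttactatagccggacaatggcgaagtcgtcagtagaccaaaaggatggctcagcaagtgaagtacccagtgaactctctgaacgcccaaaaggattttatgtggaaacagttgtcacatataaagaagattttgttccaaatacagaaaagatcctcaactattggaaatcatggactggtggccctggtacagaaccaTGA

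The NBDY frame has 68 codons before its stop, that of SMIM30 59 and that of SMIM26 95. NBDY, on chromosome X between 56729243 and 56819179, was the sole member of the 8 to be called. It rose from an estimated 1127 to 1439 normalized counts (log2 fold change 0.35, SE 0.08, adjusted p = 1.5e-04), or 128% of vehicle. SMIM30 (chromosome 7, 113116718 to 113118554) was at 1938 and 2168 normalized counts (0.16, SE 0.07, adjusted p = 0.0881). SMIM26 (chromosome 20, 18567432 to 18569611) was at 1863 and 1781 (-0.06, SE 0.07, adjusted p = 0.608). Neither was called, and the NBDY, SMIM30 and SMIM26 changes were not tested against each other.

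The other 5 coding members were less abundant and none was called. MTLN (LINC00116), whose protein mitoregulin sits in the mitochondrial inner membrane, had a mean of 67.5 normalized counts and a log2 fold change of -0.20 (SE 0.32). BRD3OS (LINC00094), on the strand opposite BRD3, had 636 and 0.10 (SE 0.13). LASP1NB (LINC00672) had 134 and -0.18 (SE 0.24), and C20orf204 (LINC00176) had 54.3 and 0.11 (SE 0.40). SERTM2 (LINC00890), a predicted transmembrane protein, had 56.3 and 0.79 (SE 0.34, adjusted p = 0.0766), the largest difference of the 5. Their frames run from 25 codons in LASP1NB to 189 in C20orf204. Another measure is the longest run from an ATG to a stop in any GENCODE transcript of a gene, whether annotated as coding or not. In the 119 members with a transcript that RefSeq does not list as coding, it had a median of 122 codons (10 to 389). In the 8 coding members it ran from 68 in NBDY to 217 in C20orf204, so the ranges overlapped.

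Abundance was uneven. The means ran from 30.8 to 3336 normalized counts with a median of 125.8, against 823.6 over all tested rows, and the 130 rows held 0.100% of the summed mean of the table. The 10 most abundant held 40.4% of that share. Behind LINC00958 came LINC00641 at 2994 (log2 fold change -0.14, SE 0.07, adjusted p = 0.186), then SMIM30 and SMIM26. LINC00969 (MIR570HG, the host of a microRNA) had 1686 and LINC01296 (DUXAP9, a pseudogene of a double homeobox gene) had 1659, and neither was called. LINC00963 at 1249 (-0.20), LINC00862 at 1191 (-0.22, adjusted p = 0.0590) and LINC01578 (CHASERR) at 1121 (-0.21, adjusted p = 0.0779) completed the 10 with NBDY. Divided by the length of the longest transcript, SMIM26 stood first at 2719 normalized counts per kb, followed by SMIM30 at 2031 and LINC00958 at 1657, and the median was 51.1.

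Several other transcripts with a described role were not called. CHASERR lies next to CHD2, a chromatin remodeller gene whose expression it is known to restrain. CHD2, at -0.09 (SE 0.06, adjusted p = 0.288) on the log2 scale, was not called either. LINC00152 (CYTOR, named for an effect on the cytoskeleton) had a mean of 594 normalized counts and a log2 fold change of 0.05 (SE 0.11). LINC01021 (PURPL), a p53-induced transcript, had 583 and 0.10 (SE 0.12), and LINC00467 had 650 and -0.05 (SE 0.11). LINC00941 had 366 and 0.11 (SE 0.15), LINC00346 (PRECSIT) 112 and 0.14 (SE 0.24), and LINC00704 (MANCR, an RNA associated with mitosis) 106 and -0.45 (SE 0.26). LINC00662 at 0.22 (SE 0.11) had an adjusted p of 0.119.

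Being uncalled did not mean being well bounded. Of the 108 uncalled rows, 82 had a 95% interval inside a 2-fold change in either direction and 26 had one that reached beyond it. LINC01358 had the lowest fold change among them. It stood at 148 normalized counts with vehicle and 36.2 with PT2399, a log2 fold change of -2.03 close to that of LINC01559, but its SE was 0.81 and its adjusted p 0.0535. LINC00648 had -1.28 (SE 0.66, adjusted p = 0.166), and LINC00674 -0.12 with an SE of 1.06, the largest of all 130. The coefficient of variation between replicates implied by the SE was 89.9% for LINC00674 and 67.7% for LINC01358, against a median of 17.9% over the LINC rows and 7.64% over tested rows with a mean of at least 30. The longest GENCODE transcript of LINC00674 has 160 bases, the shortest of the set. Which libraries carry that spread cannot be read from the table.

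**Figure D4:**
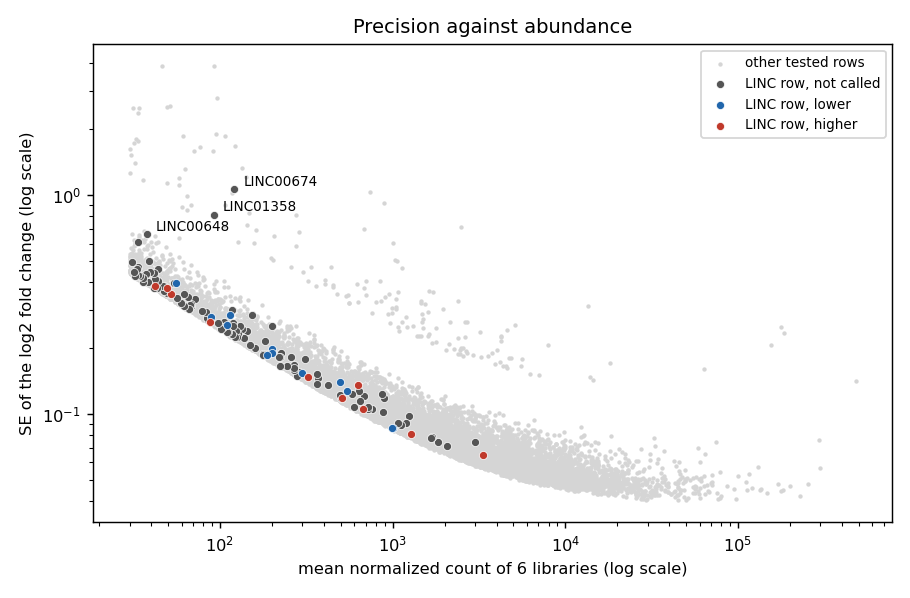
Standard error of the log2 fold change (vertical axis, log scale) against the mean normalized count (horizontal axis, log scale) for tested rows with a mean of at least 30 in grey and the LINC rows in colour. Most LINC rows follow the grey band, while LINC00674 at 1.06, LINC01358 at 0.81 and LINC00648 at 0.66 stand above it.

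At the selection limit there was a gap. LINC00173 at 30.8, LINC01234 at 31.8 and LINC00896 at 32.3 normalized counts were just inside, with log2 fold changes of 0.74, -0.53 and -0.02. LINC00284 at 26.6, LINC00649 at 26.2 and LINC01561 also at 26.2 were just outside, with 0.26, -0.02 and 1.12. None of these 6 was called. Of the 388 LINC rows under the limit, 199 had a mean under 1 and 38 were tested.

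Position was a property that the selection did not use. Of the 130 rows, 121 had a tested protein-coding gene within 500 kb, and 20 of these 121 were called. In 6 cases the row and its nearest coding gene were both called, 4 in the same direction and 2 in opposite directions, and in 14 the neighbour was not called. Over 11860 protein-coding genes with a mean of at least 30, taken with their own nearest coding gene, both were called in 1012 pairs, 653 in the same direction. The correlation of the 2 log2 fold changes over the 121 pairs was 0.171 (Pearson) and 0.117 (Spearman), beside 0.133 and 0.112 over the 11860 pairs. Within 50 kb it was 0.367 and 0.269 over 78 pairs, beside 0.152 and 0.124 over 9997 pairs of coding genes, all from the same libraries and given as a description. Pairs with overlapping spans, which may share reads, were kept in these correlations. Of the 121 LINC pairs, 106 were free of such overlap, and no correlation was computed over them alone.

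LINC00973 and DCBLD2, which encodes a membrane receptor-like protein, lie 12871 bases apart and both rose. DCBLD2 was at 77123 normalized counts with a log2 fold change of 0.45 (SE 0.04), beside 0.75 for LINC00973. LINC01411 rose with CPEB4, which encodes a regulator of mRNA polyadenylation, at 0.30 (SE 0.06) and 374374 bases away. On the lower side, LINC01057 (SLC44A3-AS1) and SLC44A3, a choline transporter-like gene whose span lies 125 bases away, had -0.42 and -0.51 (SE 0.08 for SLC44A3), and LINC00342 and ANKRD36C, 21951 bases apart, had -0.78 and -0.44 (SE 0.08).

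In the opposing pairs, LINC00839 rose while ZNF33B, a zinc finger gene, fell by 0.34 (SE 0.08) on the log2 scale, and LINC01094 rose while ANXA3, a calcium-dependent membrane binding protein gene, fell by 0.46 (SE 0.10). Of the 6 rows that were lower by at least 2-fold, 5 had an uncalled nearest coding gene. Within 500 kb, the neighbour was uncalled for 14 of 20 called LINC rows and for 2208 of 3220 called coding genes. The 5 of 6 was not tested against these counts. LRRC15, 42445 bases from LINC00887, had -0.60 (SE 0.26, adjusted p = 0.0887) at 89.2 normalized counts, CCNL1 beside LINC00880 had -0.10 (SE 0.05), and EMP1 beside LINC01559 had 0.53 (SE 0.71) at a mean of 26.6. LINC01320 had its nearest tested coding gene, FAM98A, 1078260 bases away, at 0.38 (SE 0.06). The uncalled LINC01152, at 0.82 (SE 0.44), had SOX9, a transcription factor gene, as its neighbour, which rose by 1.90 on the log2 scale.

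**Figure D5:**
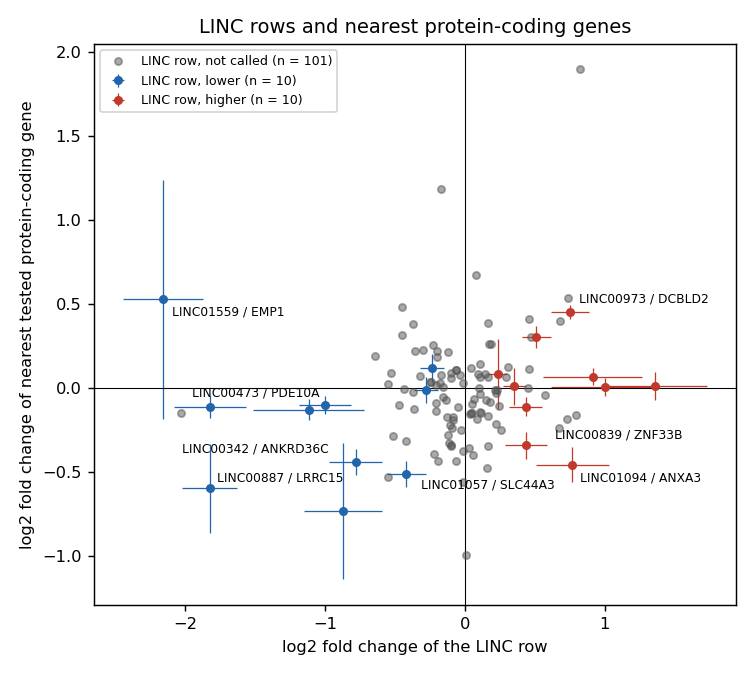
Log2 fold change of the nearest tested protein-coding gene within 500 kb (vertical axis) against that of the LINC row (horizontal axis) for 121 pairs, with bars of 1 SE for the called rows. LINC00973 with DCBLD2 lies at 0.75 and 0.45, LINC00887 with LRRC15 at -1.83 and -0.60, and the uncalled row at 0.82 whose neighbour reaches 1.90 is LINC01152 beside SOX9.

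Starts and strands were known for the 102 members with a promoter window, 15 of them called. In 11 of the 102 the start lay head to head with that of a tested coding gene within 1 kb, and none of the 11 was called. The called share was 16.9% of all 130 LINC rows and 23.0% of all tested rows. With only 11 rows, this count was not tested against those shares. LINC01057, beside SLC44A3, was not among the 102. LINC00205 came nearest, at 0.46 (SE 0.18, adjusted p = 0.0511), across 157 bases from POFUT2, a protein fucosyltransferase gene, which rose by 0.41 (SE 0.10, adjusted p = 2.7e-04). SLC12A2-DT (LINC01184) and SLC12A2 had -0.10 and 0.06, and ZNF407-AS1 (LINC00909) and ZNF407 had -0.24 and 0.04, with none of these called. A total of 74 of the 130 spans overlapped another RefSeq gene, 22 of them a coding gene, and 14 of the 22 called rows were among the 74. Among the 56 rows free of overlap, 8 were called, 4 in each direction.

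Beside other classes of noncoding RNA in the table with a mean of at least 30, the LINC rows lay between. Of 20 SNHG rows, the host genes of small nucleolar RNAs, 5 were higher and 1 lower (30%). Of 227 antisense rows, named by a suffix AS and a number, 4 were higher and 15 lower (8.37%). Among 12026 rows that RefSeq lists as protein-coding the share was 27.2%, at a median SE of 0.09 against 0.24 for the LINC rows. These shares were not tested against each other, and abundance differs between the classes, with a median mean of 471 normalized counts for SNHG, 113 for antisense and 1413 for protein-coding rows.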

How the data were processed

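Polysome-associated RNA was measured in 6 libraries, grouped by their labels. The dose stands in mM in the PT2399 label but as 2 µM in the treatment protocol and the paper's methods, and the latter is printed. Per the labels, the authors used bcl2fastq 2.18, STAR 2.7.3a, Salmon, DESeq2 1.22.1 and hg38. The libraries were stranded, but the strand setting of the counting is not given in the sources, so rows that overlap another gene, or share reads with near-identical copies, are uncertain.

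The deposited file holds the authors' own DESeq2 comparison and 0 columns of single libraries. The mean normalized count is a signal computed by the authors over all libraries. The log2 fold change (PT2399 over vehicle), its SE and the Wald score are the authors' estimates, and the deposited p-value and adjusted p-value are from their two-sided Wald test with Benjamini-Hochberg adjustment. An adjusted p is missing for 14711 rows, and the lowest mean of a row with one is 14.5. These columns were read as deposited, since nothing else in the file allows the comparison. No refit, depth per library in reads or comparison of replicates was possible, and p-values measure the spread between these replicates of 1 cell line.

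Intervals are the log2 fold change ± 1.96 SE. Group levels were solved from the mean and the fold change, and the coefficient of variation from the SE, the levels and the recovered size factors. It reflects a dispersion that the authors' tool shrinks towards a trend. Rows were matched to RefSeq on GRCh38.p14, with neighbours and promoters from the same tables, and transcript lengths and frames came from GENCODE v44lift37. Arithmetic was tested on simulated data. The members and lists were chosen with earlier results of these data known. Genes named are called members past an absolute log2 fold change of 1, the 8 smallest adjusted p in each direction and the 10 highest means. Coding members, part of a list of members with described roles, and neighbours of members were named too. LINC00665, LINC00667, LINC00339 and LINC01138 of that list are not described. LINC01021 and LINC00704 were not on that list and were named with their values known. LINC01358, LINC00648, LINC00674, LINC00205, LINC01152, the other head-to-head pairs and the remaining called rows were chosen after their values were seen. Software versions were scipy 1.17.1, numpy 2.4.6 and pandas 2.3.3 under Python 3.11.15, with matplotlib 3.10.9 for plots.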

Additional observations from a re-analysis of the deposited data

How the results depend on the processing

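The count of 22 called LINC rows depended on the threshold. At an adjusted p of at most 0.01 it was 14 (6 higher, 8 lower), for a change of at least 2-fold it was 8 (2 higher, 6 lower), and in a Wald test against a 1.2-fold change it was 6, namely LINC00473, LINC00880, LINC00887, LINC00973, LINC01320 and LINC01559. Without members that overlap another gene it was 8 of 56, at the same threshold. That filter removes 74 of the 130 rows, so its count has a smaller base than the 22. It stayed within 1.5 times of 22 at an adjusted p of at most 0.1 (29), with adjustment over every row with a p-value (19), at a mean of at least 100 (16 of 80), with no minimum mean (23 of 168), in rows that RefSeq lists as noncoding (21 of 120) and after recentring (22). The median log2 fold change lay between -0.06 and -0.01 under the 5 alternatives run. Same-direction neighbour pairs were 3 within 50 kb and 4 without overlapping neighbours. The share of promoter windows with the motif was 24.4% for ACGTG alone, beside 21.4% of all windows.

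No paired analysis was possible because the table has no columns of single libraries and no replicate was left out for the same reason. Precision was limited by abundance, with a median SE of 0.38 from 30 to 100 normalized counts.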

Other observations

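Below the selection limit, LINC00410 was the sole called LINC row among the 38 that were tested there. It had a mean of 24.4 normalized counts, an estimated 5.42 with vehicle and 43.3 with PT2399, and a log2 fold change of 3.00 (SE 0.61, adjusted p = 1.2e-05 in the authors' deposited table). It was chosen after its value was seen. Its vehicle level lay under 14.5, the lowest mean of a row with an adjusted p, so it was tested through its PT2399 level.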
